A study of Homo sapiens with 4 samples.

Results

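The genes described here are the granins and prohormone processing enzymes, taken from the deposited tables by matching gene identifiers to 10 symbols in GENCODE release 29. All 10 were found among the 58174 genes of each table. They are 6 granin family and granule cargo genes (CHGA, CHGB, SCG2, SCG3, SCG5 and VGF) and 4 processing enzymes (PCSK1, PCSK2, CPE and PAM). The series measured RNA in 4 libraries from 293FT, a human embryonic kidney line of the 293 family in which SV40 large T antigen is expressed. The cells were labelled NIPBLwt (2 libraries) or NIPBLmut (2 libraries) and were grown in the same medium with serum, with no treatment named. NIPBL encodes the protein that loads cohesin onto chromosomes, and the title of the series concerns the developmental syndromes Cornelia de Lange and CHOPS. Neither the kind of mutation nor the number of clones is given in the labels, and nothing says that the libraries came from separate cultures. P-values therefore measure only the spread between these libraries, which may be technical. The members were chosen by their measured values in NIPBLmut against NIPBLwt, the higher level of CHGB among them, so their values in that comparison are a description and carry no test.

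Dense-core granules store peptide hormones, neuropeptides and amines in endocrine cells and neurons and release them on a stimulus. Granins are acidic proteins that aggregate with the cargo in the Golgi and are themselves cut into peptides. The prohormone convertases PCSK1 and PCSK2 cut precursors after pairs of basic residues, carboxypeptidase E (CPE) trims the exposed basic residues, and PAM converts a terminal glycine into an amide. Kidney epithelium is not known for this regulated route of secretion, although 293 cells carry some neuronal transcripts.

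The expected counts, which are estimated reads per gene, summed to between 31545743 and 33161120 per library. Levels are given as CPM, library-scaled counts with trimmed-mean (TMM) factors, and at that depth 1 count was worth between 0.0287 and 0.0335 CPM. NIPBL itself was at 41.8 and 44.5 CPM in wild-type and at 61.0 and 62.0 CPM in mutant libraries, with a log2 fold change of 0.51 (SE 0.11, edgeR adjusted p = 0.057, DESeq2 adjusted p = 0.0336). Without a stated kind of mutation this level cannot serve as a check of the labels. Of 18984 genes that passed the filter on low counts, edgeR called 5.81% at an adjusted p under 0.05, 3.71% higher and 2.1% lower in mutant. The wild-type libraries differed from each other more than the mutant libraries did, with a chi-square per gene of 45.5 against 3.97. Of the 9 markers listed for the kidney line, VIM (284.7 to 461.0 CPM), NEFL (96.0 to 155.7 CPM), LIN28B, KRT8 and KRT18 were abundant in all libraries. PAX2 was at 0.68 CPM or less, and NEFM fell from 72.8 and 63.9 CPM to 1.33 and 0.833 CPM (edgeR adjusted p = 0.0086). These markers were named after their values were seen. Together the 9 listed markers summed to 373.6 and 403.3 TPM in wild type and to 326.3 and 308.5 TPM in mutant (1 called higher, 3 lower). TPM are abundances per transcript length scaled to a fixed total.

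Among the members, CHGB and the convertase PCSK2 stood well above their wild-type levels in both mutant libraries, while CPE and PAM were abundant in every library and the other granins stayed at 1.49 CPM or less. Of the 10 members 9 passed the filter on low counts, SCG2 being the exception. edgeR called 2 of the 9 higher, CHGB and PCSK2, and none lower, where 3.71% and 2.1% of all tested genes were called higher and lower. An unadjusted p under 0.05 was found for 5 of the 9, each with a positive fold change, and for 5653 of the 18984 tested genes, and DESeq2 also called 2 higher and none lower (6.82% and 6.35% of all tested genes). The median log2 fold change of the 9 was 0.76, against -0.01 over all tested genes. For the 6 tested members with a wild-type mean below 1 CPM the median was 0.997 with 1 called, where the 1644 protein-coding genes tested at such levels had a median of 1.12 with 16.5% called higher. Both mutant libraries lay above both wild-type libraries for 7 of the 10 members and below them for none, where 32.3% and 30.8% of all tested genes did so. The comparison was part of the choice of members, so nothing is read from these counts. Without wild-type replicate 1 the called members were CHGA, CHGB, PCSK1, PCSK2, CPE and PAM, and without wild-type replicate 2 they were CHGA, CHGB, SCG3, PCSK1, PCSK2 and CPE, 6 in each case. A gene low in wild type can also pass the filter through its mutant level alone, as PCSK1 and PCSK2 did. In bulk RNA, more cells with a transcript and more transcript per cell cannot be told apart.

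**Figure D1:**
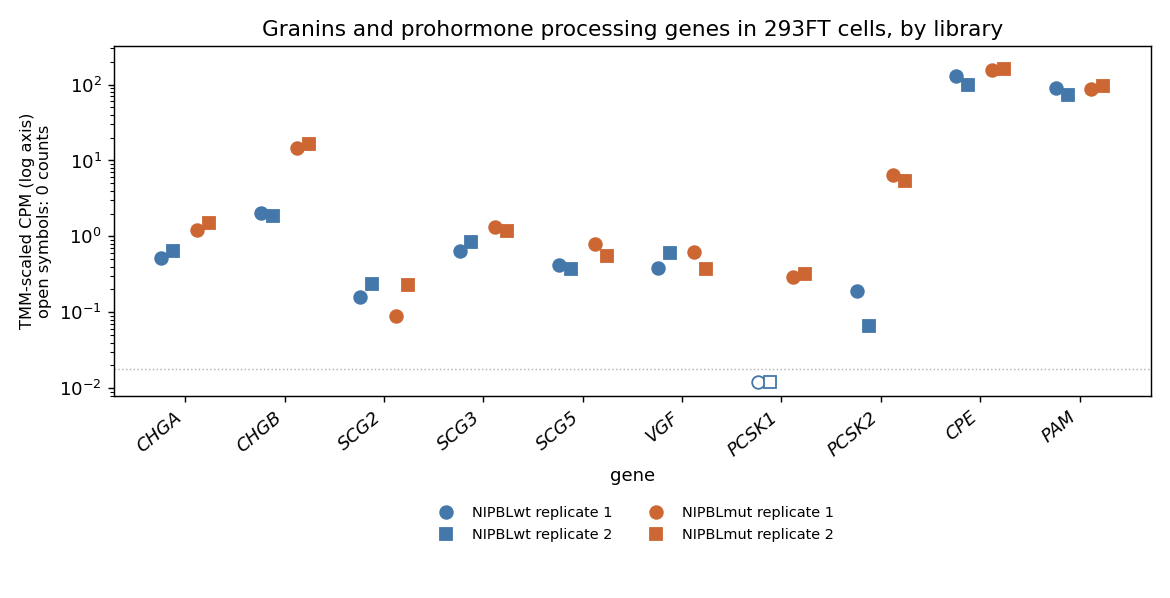
Level of each member in each library as TMM-scaled CPM on a log axis, with NIPBLwt in blue and NIPBLmut in orange, circles for replicate 1 and squares for replicate 2, and open symbols below the dotted line for libraries with 0 counts. CHGB and PCSK2 are separated widely by genotype, CPE and PAM sit between 72.3 and 159.5 CPM in all 4 libraries, and SCG2 and VGF overlap between genotypes.

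The promoters of several members are known to respond to cyclic AMP through the CRE sequence TGACGTCA, and the repressor REST silences many neuronal and neuroendocrine genes through the RE1 sequence. Promoter sequences of 250 bases before to 50 bases after the start were taken from RefSeq (GRCh38.p14) and matched by symbol. They were found for 8 of the 10 members, in 12 entries, and not for CHGB and SCG2. On either strand, TGACGTCA was present in 3 of the 12 entries, those of CHGA, VGF and 1 start of PCSK1, and in 1.85% of all 35116 promoters in the table. Its shorter core TGACG, which the full sequence contains, was present in 9 of the 12 entries and in 24.6% of all. The RE1 sequence, searched as a left arm TTCAGCACC and a right arm GGACAG with any 2 bases between, was in none of the 12 entries and in 0.0142% of all promoters. The left arm alone was in 1 entry, that of SCG3, and in 0.376% of all, and in SCG3 the right arm, present in 20.5% of all promoters, followed 8 bases further. The 3 entries with the full CRE and the SCG3 entry are shown 5′ to 3′ on the strand of the gene, since they hold the motifs that set members apart. Capitals mark the CRE, which begins 54 bases before the start in CHGA, 79 in VGF and 77 in PCSK1, and in SCG3 the arms of RE1, the left one beginning at base 9 after the start. These matches are letters in a window and do not show binding.
CHGA (chr14:92922900-92923199, plus strand): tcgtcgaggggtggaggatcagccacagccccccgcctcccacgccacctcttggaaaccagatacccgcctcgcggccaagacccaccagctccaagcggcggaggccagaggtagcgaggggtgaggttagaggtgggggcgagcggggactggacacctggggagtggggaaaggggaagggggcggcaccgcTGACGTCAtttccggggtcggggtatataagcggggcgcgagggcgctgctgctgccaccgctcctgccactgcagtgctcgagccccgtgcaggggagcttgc
VGF (chr7:101165520-101165819, minus strand): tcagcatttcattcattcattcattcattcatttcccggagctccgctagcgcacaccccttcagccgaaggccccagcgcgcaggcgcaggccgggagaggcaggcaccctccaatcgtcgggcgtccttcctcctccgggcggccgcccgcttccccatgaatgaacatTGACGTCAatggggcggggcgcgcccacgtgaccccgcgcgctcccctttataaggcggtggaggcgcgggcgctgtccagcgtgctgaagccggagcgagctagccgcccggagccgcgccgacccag
PCSK1 (chr5:96433199-96433498, minus strand): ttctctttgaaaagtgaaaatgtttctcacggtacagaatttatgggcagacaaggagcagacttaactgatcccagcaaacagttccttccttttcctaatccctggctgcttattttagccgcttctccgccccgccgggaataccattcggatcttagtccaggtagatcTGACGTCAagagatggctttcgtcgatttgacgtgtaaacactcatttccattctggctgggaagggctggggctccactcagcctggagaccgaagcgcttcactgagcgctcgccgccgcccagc
SCG3 (chr15:51681253-51681552, plus strand): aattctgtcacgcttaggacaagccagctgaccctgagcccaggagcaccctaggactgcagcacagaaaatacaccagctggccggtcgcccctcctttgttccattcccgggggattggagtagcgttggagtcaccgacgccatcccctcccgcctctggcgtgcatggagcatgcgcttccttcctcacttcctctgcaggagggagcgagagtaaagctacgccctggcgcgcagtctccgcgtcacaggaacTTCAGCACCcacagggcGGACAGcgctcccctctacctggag
In these windows the GC content of the 12 entries ran from 51.7% to 78.3%, against a median of 58.7% over all promoters.

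Chromogranin B, encoded by CHGB (ENSG00000089199, chromosome 20, 5911430 to 5925361, plus strand, GENCODE coordinates on hg38 as for the genes that follow), is a core protein of the granule matrix. CHGB was at 2.03 and 1.84 CPM in wild-type replicates 1 and 2, and at 14.6 and 16.6 CPM in mutant replicates 1 and 2. These values rest on 63 and 55 expected counts in wild type and on 494 and 578 in mutant. The groups were far apart compared with the spread inside each, and the ratio of means was 8.06 (log2 fold change 3.01, SE 0.19). Per length, CHGB went from 0.64 and 0.57 TPM to 5.14 and 6.11 TPM. Its share of the summed TPM of the 6 granins was 41.6% and 32.2% in wild type and 69.6% and 74.2% in mutant.

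Chromogranin A (CHGA, ENSG00000100604, chromosome 14, 92923080 to 92935293, plus strand), the classic serum marker of neuroendocrine tumours, was lower than CHGB per length in mutant cells, at 0.80 and 0.96 TPM. CHGA was at 0.516 and 0.636 CPM in wild type and at 1.21 and 1.49 CPM in mutant, from 35 counts in total in wild type and 93 in mutant. The groups did not overlap, and the log2 fold change was 1.23 (SE 0.34) without a call. SCG3, which binds chromogranin A and cholesterol-rich granule membrane, had 0.645 and 0.837 CPM in wild type, against 1.33 and 1.18 CPM in mutant. The chaperone of PCSK2 is 7B2, the product of SCG5, which had 0.419 and 0.368 CPM in wild type, against 0.799 and 0.546 CPM in mutant. Neither was called, and both had a log2 fold change of 0.76, with an SE of 0.33 for SCG3 and 0.41 for SCG5. Both mutant libraries were above both wild-type libraries for each of these genes, on 45 and 86 summed counts in wild type and mutant for SCG3 and on 24 and 46 for SCG5.

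VGF, a precursor of several neuropeptides that responds to nerve growth factor, did not separate the genotypes. VGF was at 0.387 and 0.602 CPM in wild type and at 0.621 and 0.373 CPM in mutant, so that the ranges overlapped nearly completely (log2 fold change 0.01, SE 0.47). Secretogranin II, the product of SCG2, gives rise to secretoneurin. SCG2 had 5 and 7 counts in wild type and 3 and 8 in mutant, and was too low to be tested.

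The convertase PCSK2 (ENSG00000125851, chromosome 20, 17226107 to 17484578, plus strand) is the enzyme that completes the cleavage of proinsulin, proglucagon and proopiomelanocortin in the tissues that make them. PCSK2 had 6 and 2 counts in wild type, or 0.193 and 0.067 CPM. In mutant it had 220 and 189 counts, or 6.51 and 5.43 CPM. The ratio of means was 45.9 (log2 fold change 5.47, SE 0.44), and its wild-type side rests on 8 counts in all. With wild-type replicate 1 left out the log2 fold change was 6.38, with replicate 2 left out it was 4.92, and the direction was the same. SCG5, which PCSK2 needs for its activation, was not called and stood at 0.67 and 0.55 TPM in mutant, beside 3.90 and 2.84 TPM for PCSK2.

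PCSK1 (ENSG00000175426, chromosome 5, 96390415 to 96434143, minus strand), the convertase that acts earlier in the same route, had no counts in either wild-type library and 10 and 11 counts in mutant. Its mutant mean of 0.306 CPM was at least 3.11-fold higher than a level of 3 counts per library, a bound that covers counting error only. PCSK1 was not called in the comparison across all genes. The antisense gene AC104123.1 on the other strand had mean counts of 0.5 in wild type and 3.5 in mutant. Of the 3 genes with a promoter entry that holds a full CRE, CHGA and PCSK1 had both mutant libraries above both wild-type ones, and VGF overlapped. Such separation was found for 7 of the 10 members and for 32.3% of all tested genes, so nothing is read from it. Both convertases were thus present in the mutant libraries and nearly or wholly uncounted in wild type, at levels far under those of CPE and PAM.

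CPE (ENSG00000109472, chromosome 4, 165361194 to 165498320, plus strand) was the most abundant member. CPE was at 131.0 and 99.97 CPM in wild type and at 155.1 and 159.5 CPM in mutant, with both mutant libraries above both wild-type libraries. The log2 fold change of 0.45 (SE 0.16) was not called. It came to 0.64 with wild-type replicate 1 left out and to 0.26 with replicate 2 left out. PAM (ENSG00000145730, chromosome 5, 102753981 to 103031105, plus strand) was at 88.8 and 72.3 CPM in wild type and at 87.3 and 95.5 CPM in mutant. Its ranges overlapped, and the log2 fold change was 0.18 (SE 0.14; 0.32 with wild-type replicate 1 left out, 0.04 with replicate 2 left out). The isoform-weighted effective length that the authors deposited for PAM was 1652 and 1678 bases in wild type and 1801 and 1872 bases in mutant. For CPE it was 2181 and 2339 bases in wild type and 2203 and 2139 bases in mutant, and thus overlapped. How many genes have lengths that separate the groups was not counted, so nothing is read from the PAM lengths. With effective length offsets the log2 fold change of PAM was 0.05.

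Ordered per length, the wild-type members ran from CPE (46.7 and 31.8 TPM) and PAM (41.77 and 32.03 TPM), whose ranges overlapped, through CHGB (0.64 and 0.57 TPM) to SCG5 (0.34 and 0.27 TPM) and CHGA (0.20 and 0.42 TPM), which overlapped as well. SCG3, VGF and PCSK2 followed with ranges that overlapped from one to the next, up to 0.24 TPM, then SCG2 at 0.07 TPM in both libraries and PCSK1 at 0. In mutant the order was CPE (61.2 and 64.9 TPM), PAM (42.1 and 44.4 TPM), CHGB and PCSK2, with no overlap between neighbours, so that PCSK2 went from among the lowest to the place next after CHGB. CHGA, SCG5 and SCG3 came next, from 0.96 down to 0.35 TPM, followed by VGF (0.30 and 0.14 TPM), PCSK1 (0.08 and 0.09 TPM) and SCG2 (0.04 and 0.12 TPM), the last 2 overlapping. The 4 enzymes summed to 88.6 and 63.8 TPM in wild type and to 107.3 and 112.3 TPM in mutant. The 6 granins summed to 1.54 and 1.77 TPM in wild type and to 7.39 and 8.23 TPM in mutant.

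Transcriptional regulators of neuroendocrine genes were mostly not called. Of 24 listed, 18 were tested, with 1 called higher and 1 lower (3.71% and 2.1% of all tested genes) and a median log2 fold change of -0.23. REST was at 44.6 and 46.0 CPM in wild type and at 33.5 and 34.8 CPM in mutant, and both mutant libraries lay below both wild-type ones (log2 fold change -0.41, SE 0.11, edgeR adjusted p = 0.0826). CREB1, a transcription factor that binds the CRE, fell by 0.62 on the log2 scale (SE 0.12, edgeR adjusted p = 0.0446), from 64.9 and 71.4 CPM to 43.5 and 44.9 CPM. The CREB1 call was lost on TPM (adjusted p = 0.181), with total counts (0.0551), with effective length offsets (0.0869) and without mutant replicate 1 (0.388) or 2 (0.377). CREB1 overlaps METTL21A on the other strand, whose mean count went from 691 to 452, and whether the counting used strand is not given. RCOR2, a corepressor that acts with REST, rose from 7.41 and 5.92 CPM to 13.5 and 12.3 CPM (log2 fold change 0.95, SE 0.19, edgeR adjusted p = 0.0499), and lost its call in 4 of the 10 alternatives with all libraries and without mutant replicate 1 (0.304) or 2 (0.219). ISL1, a homeodomain factor of endocrine and motor neuron lineages, had -1.36 (SE 0.30, edgeR adjusted p = 0.0612), and CREM, a cyclic AMP responsive factor, had 0.25 (adjusted p = 0.212).

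Precursors of hormones and neuropeptides are the substrates of this route. Of 58 listed, 23 were tested, with 6 called higher and none lower by edgeR (3.71% and 2.1% of all tested genes), and with a median log2 fold change of 0.84. For comparison with low genes in general, protein-coding genes that averaged under 1 CPM in wild type had 16.5% called higher and a median of 1.12. Of the 6 called, NTS, BDNF, PENK and NPPB had 1 or both wild-type libraries under the minimum of the filter, so that they were tested only because of their mutant levels. Their values are given as a description, and the count of 6 is not read as support. Precursor genes without a count in any library numbered 15.

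CALCB, the gene for the beta form of calcitonin gene-related peptide, was by far the most abundant precursor. CALCB rose from 186.8 and 178.5 CPM to 617.2 and 679.5 CPM, a ratio of means of 3.55 (log2 fold change 1.83, SE 0.12, edgeR adjusted p = 0.0086). It held 141.6 and 129.1 of the 205.8 and 203.1 TPM that all 58 precursors summed to in wild type, and 522.5 and 576.1 of 595.3 and 642.7 TPM in mutant. Its paralog CALCA, which overlaps it on the other strand, had no counts in wild type and 7 in each mutant library, so the split of reads between these similar genes is uncertain. Proopiomelanocortin, encoded by POMC, is the precursor of corticotropin and a substrate of both convertases. POMC rose from 1.32 and 1.54 CPM to 5.56 and 6.41 CPM (log2 fold change 2.06, SE 0.24, edgeR adjusted p = 0.0264). CALCB and POMC were called in all 14 alternatives.

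The other 4 called precursors, named after their values were seen, were low in every library. NTS, the neurotensin precursor, had 0.290 and 0.736 CPM in wild type, against 2.93 and 2.87 CPM in mutant (log2 fold change 2.50, SE 0.45; 1.96 without wild-type replicate 1 and 3.30 without replicate 2). BDNF, a growth factor that is cut from a proprotein, had 0.612 and 0.100 CPM in wild type, against 4.35 and 4.19 CPM in mutant (log2 fold change 3.56, SE 0.63; 5.34 without wild-type replicate 1 and 2.79 without replicate 2). BDNF overlaps BDNF-AS on the other strand, whose mean count went from 19.5 to 47.5. PENK, the enkephalin precursor, had no counts in wild type and 22 and 25 counts in mutant, at least 6.96-fold above 3 counts per library. NPPB, the precursor of B-type natriuretic peptide, had 0 and 1 counts in wild type and 14 and 16 in mutant. Among the alternatives with all libraries, NPPB was not called by DESeq2. Its log2 fold change of 4.44 (SE 0.84) became 3.55 without wild-type replicate 1 and 6.87 without replicate 2. It was 4.505 without mutant replicate 1 and 4.355 without mutant replicate 2. In the other direction GAL, the galanin precursor, was at 20.9 and 35.8 CPM in wild type and at 11.8 and 9.28 CPM in mutant, without a call by edgeR (log2 fold change -1.43, SE 0.29, adjusted p = 0.053) but with one by DESeq2 (adjusted p = 3.85e-05). Among the alternatives with all libraries, GAL was also called with effective length offsets, no filter and the replicate block. Of the same alternatives, it was not called with RLE, upper-quartile or total-count scaling, the stricter filter or limma. GNRH1, the precursor of gonadotropin-releasing hormone, had -0.41 (SE 0.31, edgeR adjusted p = 0.423).

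**Figure D2:**
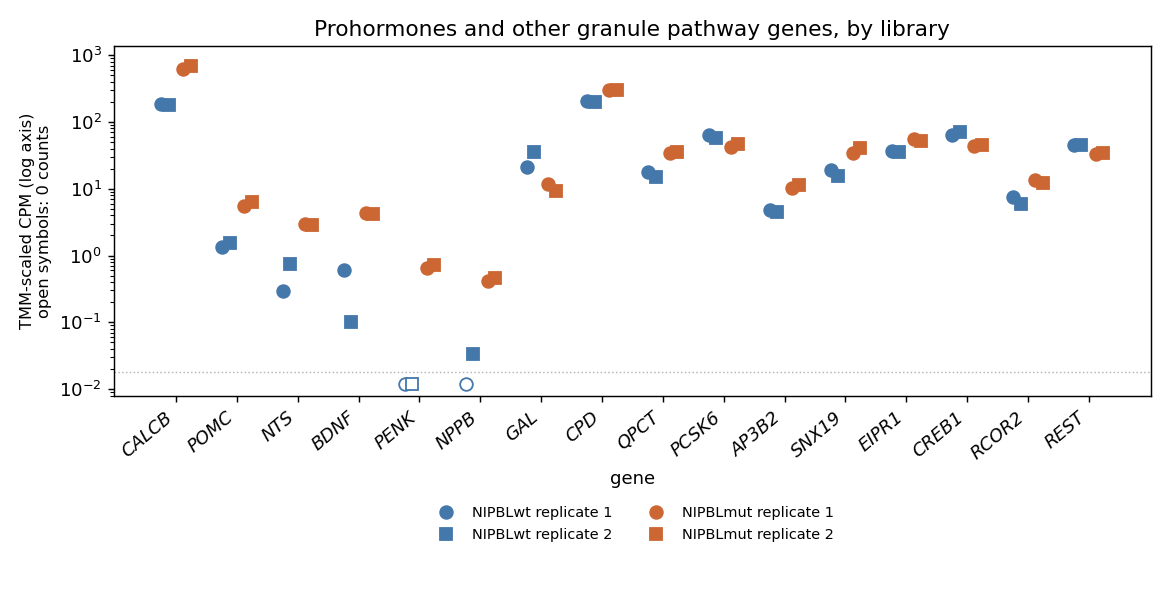
Level in each library of 16 genes of the granule pathway as TMM-scaled CPM on a log axis, with NIPBLwt in blue, NIPBLmut in orange, circles for replicate 1, squares for replicate 2 and open symbols for 0 counts. CALCB stands between 617.2 and 679.5 CPM in mutant and between 178.5 and 186.8 CPM in wild type, and PENK has counts in the mutant libraries only.

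Other processing enzymes and their partners make up a list of 18 genes, of which 15 were tested, with 2 called higher, none lower (3.71% and 2.1% of all tested genes) and a median log2 fold change of 0.25. QPCT, which forms the terminal pyroglutamate of peptides, rose from 17.9 and 14.9 CPM to 34.85 and 35.5 CPM (log2 fold change 1.10, SE 0.14, edgeR adjusted p = 0.0289). CPD, a carboxypeptidase of the Golgi and constitutive route, rose from 203.7 and 202.6 CPM to 299.5 and 306.2 CPM (log2 fold change 0.58, SE 0.11, edgeR adjusted p = 0.0449), a call lost with the replicate number as a block (0.0612) and without mutant replicate 1 (0.409) or 2 (0.493). The convertase PCSK6 had -0.44 (SE 0.12, adjusted p = 0.0862) and the aminopeptidase RNPEP -0.22 (adjusted p = 0.274), both by edgeR and neither called.

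Genes of the granule membrane and of granule formation and release had 3 of 22 tested called higher and none lower (3.71% and 2.1% of all tested genes), out of 27 listed, with a median log2 fold change of 0.27. AP3B2, the neuronal beta subunit of the AP-3 adaptor, rose from 4.74 and 4.52 CPM to 10.3 and 11.6 CPM (log2 fold change 1.24, SE 0.18, edgeR adjusted p = 0.0315). With mutant replicate 1 or 2 left out its adjusted p was 0.0841 or 0.19. SNX19, a sorting nexin of the endosome that has been tied to granule number, rose from 19.3 and 15.3 CPM to 34.0 and 41.2 CPM (log2 fold change 1.12, edgeR adjusted p = 0.0368), with no call without mutant replicate 2 (0.0818). EIPR1, which acts in cargo sorting and was named after its values were seen, rose by 0.56 on the log2 scale (edgeR adjusted p = 0.0498) and was not called with RLE scaling (0.0527), with the replicate block (0.0532) or without mutant replicate 1 (0.454) or 2 (0.4). RAB2A, a GTPase of granule maturation, had -0.54 (adjusted p = 0.0917) and CADPS2, a priming factor of granule release, -0.42 (adjusted p = 0.108).

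**Figure D3:**
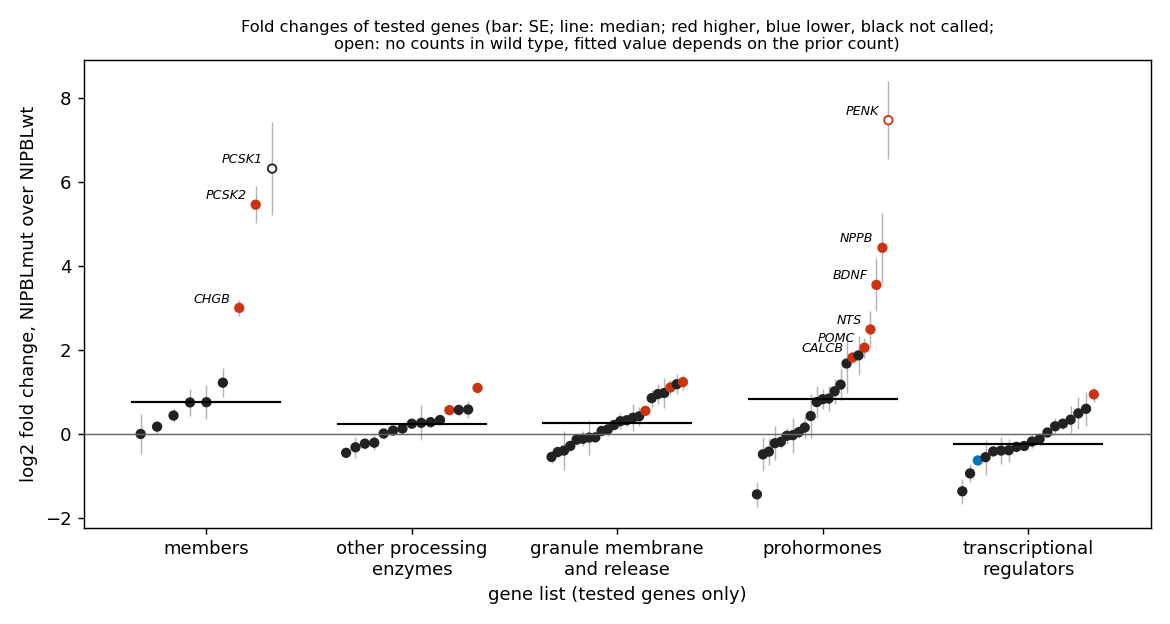
Log2 fold change of NIPBLmut over NIPBLwt for the tested members and the tested genes of 4 pathway lists, as points with SE bars, a line at the median of each list, and colour for an edgeR adjusted p under 0.05 (red higher, blue lower, black not called). Open points had no counts in wild type, and their fitted value depends on the prior count. The medians are 0.76 for the members, 0.84 for the precursors and 0.25, 0.27 and -0.23 for the other lists.

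Genes near the members on the chromosome were compared in the same way. Over the nearest tested protein-coding genes, 25 to the left and 25 to the right, the median log2 fold change was 0.05 around CHGB and 0.08 around PCSK2, and CHGB ranked at place 2 and PCSK2 at place 1 with their 50 neighbours. The neighbour above CHGB was SPTLC3, which was not called and was named after its value was seen. These surroundings share genes, since both lie on chromosome 20. Around each, 4 of the 50 neighbours were called higher and none lower, where 3.71% and 2.1% of all tested genes were. They were the same genes, all between CHGB and PCSK2: LAMP5 (log2 fold change 2.93), PAK5 (2.39), MACROD2 (1.47) and ANKEF1 (0.78), named after their values were seen. The genes next to CHGB were SHLD1 at 3.55 and 3.08 CPM in wild type, against 3.55 and 3.68 CPM in mutant, and TRMT6 at 37.5 and 75.5 CPM in wild type, against 53.6 and 54.8 CPM in mutant, with log2 fold changes of 0.13 (SE 0.22, edgeR adjusted p = 0.741) and -0.06 (SE 0.32, adjusted p = 0.916). Around CHGA the median was 0.04, around SCG3 0.29 and around SCG5 0.14. Around PCSK1 it was -0.10 and around PAM -0.11, and the lowest medians were around VGF (-0.35) and SCG2 (-0.35). Around CPE the median was 0.01, with 7 of the 50 neighbours called higher and 3 lower. Around the other members 1 (VGF) to 5 (PAM) neighbours were called higher and 0 to 5 (SCG2) lower. Nothing about these loci is read from the counts.

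**Figure D4:**
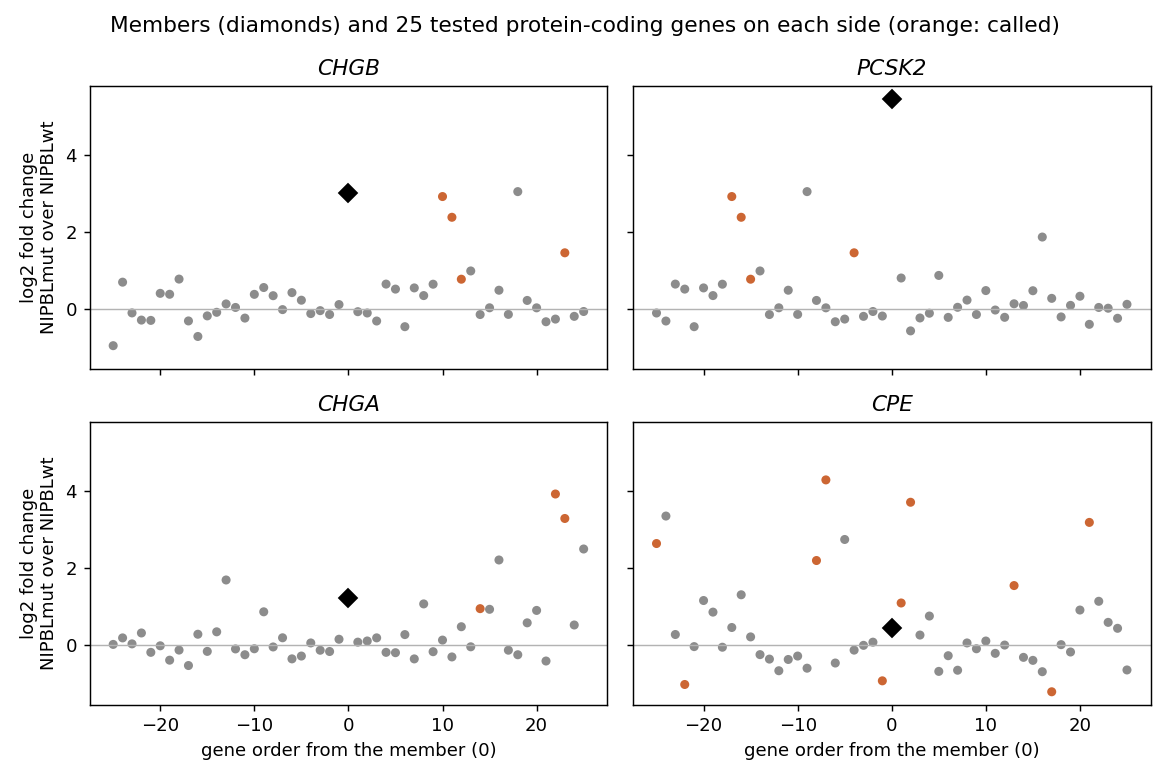
Log2 fold change of CHGB, PCSK2, CHGA and CPE (black diamonds, at 0) and of 25 neighbours to either side (tested protein-coding genes), by gene order, with called genes in orange and others in grey. Most neighbours lie near 0, and PCSK2 stands above all 50 of its neighbours and CHGB above all but 1.

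By Euclidean distance between centred log2(CPM + 1) values over the 4 libraries, the genes with a profile closest to that of CHGB among 11191 tested protein-coding genes of at least 5 CPM were KCNS3, SLC16A7, PAK3, MALRD1 and CD40, at distances of 0.196 to 0.244. KCNS3, a potassium channel subunit, was at 0.935 and 0.937 CPM in wild type and at 11.0 and 11.4 CPM in mutant. With 4 libraries such a likeness mainly restates a similar fold between genotypes.

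Markers of neuroendocrine and adrenal chromaffin cells were called in both directions. Of the 14 listed 10 were tested, with STMN2 called higher and HAND2 lower, both named after their values were seen (3.71% and 2.1% of all tested genes). The median log2 fold change of the 10 was 0.34, with 7 above 0 and 3 below. The list summed to 227.5 and 251.8 TPM in wild type and to 203.7 and 199.4 TPM in mutant. UCHL1, named after its values were seen, held 189.5 and 217.0 TPM of these in wild type and 152.1 and 147.95 TPM in mutant. TH and DBH, enzymes of catecholamine synthesis that define chromaffin cells, had at most 2 counts in any library. Fibroblast markers had 2 of 6 tested called higher and 1 lower by edgeR, all named after their values were seen. LUM (log2 fold change 1.837, adjusted p = 0.0354) and PDGFRB (2.807, adjusted p = 0.037) were higher. COL3A1 was lower (-2.035, adjusted p = 0.0452). The median log2 fold change of the 6 was 1.571, with 4 above 0 and 2 below. COL1A2 and FAP had no counts at all. Together the fibroblast markers summed to 4.97 and 3.5 TPM in wild type and to 8.86 and 9.05 TPM in mutant. The part of cells with these markers in the values of CHGB, PCSK2 and the precursors was not tested.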

How the data were processed

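Total RNA of 2 NIPBLwt and 2 NIPBLmut samples of 293FT cells was cleared of rRNA and sequenced from directional libraries, per the labels' protocols. The submitters' processing notes name STAR 2.7.3a, RSEM 1.3.1 and hg38. For the annotation release and the strand setting, the sources used here give nothing. The authors deposited expected counts, TPM and effective lengths per gene, per the file headers. Of 58174 identifiers 57836 matched GENCODE release 29.

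Expected counts were rounded and tested with edgeR 4.0.16 (R 4.3.3): filterByExpr, TMM, robust quasi-likelihood F test, Benjamini-Hochberg over 18984 genes, called under 0.05. SE is the log2 fold change divided by the root of F. The test was checked on simulated counts, where it made more false calls than the threshold allows. It missed most of the smallest changes, and at 2-fold, the next size, it missed more changes than it found. Calls near the threshold are thus less certain, and a missing call at such sizes does not show that a gene was unchanged. Alternatives were other scalings and filters, DESeq2 1.42.0, limma 3.58.1 (voom, and trend on log2(TPM + 1) with a pseudocount of 1), effective length offsets, a replicate block and leaving out each library. A fold against no counts was taken against 3 counts per library.

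Members and lists were chosen with earlier results of these data known. Genes named by rule are NIPBL, the members, REST, for each pathway list up to 4 genes with the smallest p (at most 2 per direction), the tested protein-coding neighbours of CHGB and the 5 genes closest to it. The cell type markers named by symbol fall outside this rule and were named after their values were seen.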

Additional observations from a re-analysis of the deposited data

How the results depend on the processing

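The members were chosen by this contrast, so their calls across alternatives are a description and no support. Of their log2 fold changes 109 of 121 moved by less than 1 SD between replicates. VGF, not called in any alternative, ran from -0.40 to 0.35. Members called higher ranged from 2 to 6 when 1 library was left out, and members called lower stayed at 0. Pathway genes ranged from 6 to 37 higher and from 1 to 17 lower, and all tested genes from 335 to 5909 higher and from 64 to 5931 lower. The high ends come from fits without a wild-type library, where the spread is taken from the mutant pair alone, and the lone sample is assumed to vary likewise. PCSK1 did not pass the filter without mutant replicate 1 or 2.

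All tested genes called were 704 higher and 399 lower, against 1294 and 1206 with DESeq2, 1132 and 786 with no filter, 1112 and 274 with total counts and 983 and 154 with limma-trend on TPM. Pathway genes called lower were 1, against 5 with DESeq2, 4 with no filter, 0 with total counts and 0 on TPM. Total counts took the median over all genes to 0.17 and TPM took it to 0.12. The lowest log2 fold change over the alternatives was 2.04 for CHGB and 2.01 for PCSK2. Both came from limma-trend on log2(TPM + 1), whose pseudocount of 1 exceeds their wild-type TPM. The same setting gave 0.12 for PCSK1, against 6.33 in the main fit. The cause of these differences was not tested.

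The labels share replicate numbers 1 and 2 but no stated pairing, and replicate 1 minus 2 correlated at -0.118 between the groups across genes. With a replicate block 1470 genes were higher and 809 lower, 3 members higher, and 14 pathway genes higher and 3 lower. With the crossed pairing as the replicate block, chosen after seeing the data, 2389 were higher and 1854 lower, with 4 members higher and 20 pathway genes higher and 6 lower. Low counts limit SCG2, which was not tested, and PCSK1 and PCSK2, whose wild-type sides rest on 0 and 8 counts.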
